A study of Mus musculus with 18 samples.

Results

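The genes described here are 9 liver genes that hold blood clotting in check or govern the removal of clots: *Serpinc1*, *Serpind1*, *Pros1*, *Plg*, *Serpinf2*, *Cpb2*, *Hrg*, *Vtn* and *Kng1*. They were chosen by symbol, all 9 were found among the 22524 genes of the files, and all 9 passed the filter on low counts, which 13353 genes passed. Liver RNA came from 10 female *Rps2*-A226Y mice and 8 female wild-type mice (WT) that carry Cre recombinase ubiquitously. All were 15 months old and on a C57BL/6 background. A226Y mice are heterozygous for a knock-in that changes an alanine of the ribosomal protein RPS2 and lowers the accuracy of translation. Expression of the changed allele needs excision of a stop cassette by CMV-Cre, which according to the methods was never complete, so that the A226Y mice are mosaics in which other cells keep an inactive *Rps2* allele and are haploinsufficient. Every library was compared as 1 mouse, and total counts ran from 23850565 to 62126131.

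Clotting is limited by plasma proteins that the hepatocyte secretes. Antithrombin and heparin cofactor II are serpins, inhibitors that trap the clotting proteases, and protein S is the vitamin K-dependent partner of activated protein C. A fibrin clot is dissolved by plasmin, which is cut from the zymogen plasminogen. Alpha2-antiplasmin blocks plasmin, and the carboxypeptidase TAFI trims from fibrin the lysines to which plasminogen binds. Histidine-rich glycoprotein, vitronectin and kininogen are adaptor proteins that bind several of these partners.

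The labelled genotype and tissue were checked first. *Rps2* was between 46.9 and 83.0 CPM (counts per 1e+06 reads, scaled with the TMM method) in the A226Y mice and between 104 and 143 CPM in the WT mice, with no overlap. An allele left inactive would also lower this total level, so it does not show that the changed allele was expressed. The hepatocyte markers with the highest levels, *Alb* (albumin) and *Trf* (transferrin), were at 48039 to 144015 CPM and 15860.2 to 24617 CPM over all 18 mice. One mouse of each genotype stood apart. In A226Y mouse 29 the acute phase genes *Saa1* and *Saa2*, secreted proteins of the response to inflammation, reached 6102 and 7120 CPM, against at most 28.8 and 12.5 CPM in the other 9 A226Y mice. In WT mouse 33 the 19 acute phase genes of the list summed to 35324 CPM, against 10679 to 22744 CPM in the other 7 WT mice. WT mouse 14 had the highest *Saa1* among WT mice, with 556 CPM. The 9 genes and the called genes named from the lists around them are therefore also given without mice 29 and 33, a choice made with earlier results of these data known.

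All 9 genes had a negative log2 fold change in A226Y against WT, as did 6804 of all 13353 tested genes. The median of the 9 was −0.30, where the median of all tested genes was −0.00443. *Hrg* alone passed an adjusted p of 0.05 (edgeR's quasi-likelihood test), so 1 of 9 was called lower and none higher, where 7.03% of all tested genes were called lower and 7.27% higher. At an unadjusted p under 0.05, the threshold of the study's methods, 6 of 9 were lower (*Hrg*, *Plg*, *Vtn*, *Serpinc1*, *Serpind1* and *Serpinf2*), where 14.7% of all tested genes were. The study itself singled out coagulation genes on these same mice, so the direction of the 9 genes is not independent evidence. The 9 were also correlated over the mice (median Pearson's r 0.57 with genotype means removed), so their signs are not separate observations. In bulk tissue, fewer hepatocytes and less RNA per hepatocyte cannot be told apart. Together the 9 genes took 0.925% to 1.35% of the counts in the A226Y mice and 1.06% to 1.64% in the WT mice, the highest share in each group being that of mouse 29 and mouse 33.

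**Figure D1:**
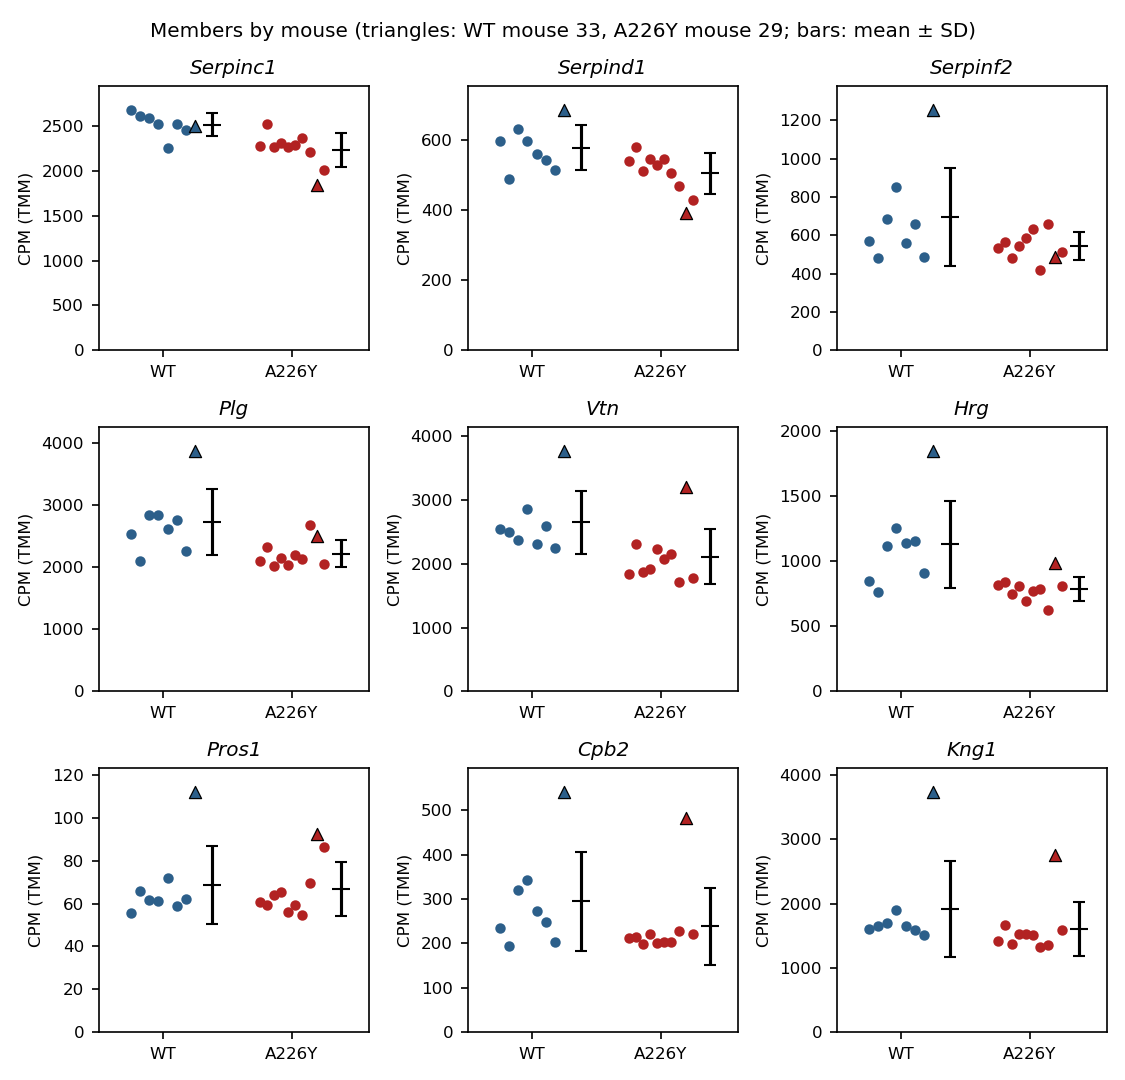
Level of each of the 9 genes in CPM (TMM scaling, vertical axes from 0) in the 8 WT mice (blue) and the 10 A226Y mice (red), with mean and SD in black. Triangles mark WT mouse 33, the highest WT mouse for every gene but *Serpinc1*, and A226Y mouse 29, the highest A226Y mouse for *Vtn*, *Hrg*, *Pros1*, *Cpb2* and *Kng1* and the lowest for *Serpinc1* and *Serpind1*.

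*Hrg* encodes histidine-rich glycoprotein, which binds heparin, plasminogen and fibrinogen. The gene (ENSMUSG00000022877) spans 22951072 to 22961656 of chromosome 16 (GRCm38, plus strand). The A226Y mice ran from 627 CPM to 985 CPM with a median of 796 CPM, and the WT mice from 760.3 CPM to 1845 CPM with a median of 1128 CPM. All 10 A226Y mice were below the WT median, 3 of them were below every WT mouse, and 5 WT mice were above every A226Y mouse. The A226Y mean was 788 ± 94.0 CPM (SD, n = 10), 0.698 times the WT mean of 1129 ± 337 CPM (SD, n = 8). On the log2 scale this was −0.52 with a standard error of 0.13 and an adjusted p of 0.0148. The two-sided exact permutation test gave p = 0.00261. Without mice 29 and 33 the log2 fold change was −0.42 (adjusted p = 0.00765), and with any 1 mouse left out it stayed between −0.58 and −0.38, with 0.0345 as the highest adjusted p. A fit with 4 surrogate variables gave −0.19 (adjusted p = 0.320).

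*Hrg* sits in a row of related genes of the cystatin superfamily on chromosome 16, between 22891277 and 23082078, in the order *Ahsg*, *Fetub*, *Hrg*, *Kng2* and *Kng1*. *Fetub*, which encodes the protease inhibitor fetuin-B, was the other gene of the row that was called, with a mean of 502 ± 42.8 CPM among the A226Y mice (SD, n = 10) against 640.0 ± 127 CPM among WT (SD, n = 8; log2 fold change −0.35, adjusted p = 0.0203). Without mice 29 and 33 it was at −0.27 (adjusted p = 0.0144). *Ahsg* (fetuin-A) had a log2 fold change of −0.25 (adjusted p = 0.133). The kininogen genes at the end of the row had −0.10 for *Kng2* (adjusted p = 0.582) and −0.26 for *Kng1* (adjusted p = 0.331). All 5 values, with that of *Hrg* itself, were thus negative, and 2 of them passed the test, where 7.03% of all tested genes were called lower.

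*Vtn* encodes vitronectin, an adhesive protein of plasma and extracellular matrix. The gene (ENSMUSG00000017344, chromosome 11 from 78499091 to 78502324, plus strand) was expressed between 1715 CPM and 3211 CPM in the A226Y mice (median 2002 CPM) and between 2250.1 CPM and 3769 CPM in the WT mice (median 2524 CPM). Of the 10 A226Y mice, 8 were below every WT mouse, and mouse 29 was above every WT mouse but mouse 33. On the log2 scale *Vtn* differed by −0.33 (standard error 0.12, adjusted p = 0.0718, exact permutation p = 0.0148). It passed the threshold without mice 29 and 33 (−0.32, standard error 0.07, adjusted p = 0.00790) and without mouse 29 alone (−0.41, adjusted p = 0.00750), but not without mouse 33 alone (−0.24, adjusted p = 0.148) or with the surrogate variables (−0.22, adjusted p = 0.266).

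*Serpinc1* encodes antithrombin, the main inhibitor of thrombin and factor Xa in plasma. The gene (ENSMUSG00000026715, chromosome 1 from 160978585 to 161005863, plus strand) ran from 1837 CPM to 2525 CPM in A226Y (median 2270.1 CPM) and from 2255 CPM to 2675 CPM in WT mice (median 2518 CPM). In A226Y, 9 of 10 mice were below the WT median and 3 were below every WT mouse. The difference was −0.17 on the log2 scale (standard error 0.06, adjusted p = 0.0821, exact permutation p = 0.00187), the narrowest standard error among the 9 genes, and it was −0.14 both without mice 29 and 33 (adjusted p = 0.0910) and with the surrogate variables (adjusted p = 0.311). It passed the threshold with DESeq2 (−0.17, adjusted p = 0.0284). It also passed with an offset for the length of all exons of the gene together (−0.27, adjusted p = 0.0269) or for GC content (−0.24, adjusted p = 0.0385). Unlike most of the others, it was not raised in either mouse that stood apart: mouse 33 lay at 2501 CPM, near the WT median, and mouse 29 was the lowest of all mice. Its exons share 2942 bases with *Zbtb37* on the other strand, and *Zbtb37* had 1.77% as many counts. Without knowledge of strand in the counting, reads of that stretch cannot be assigned with certainty, and *Plg* shares 420 exonic bases with *Slc22a3* in the same way (0.185% as many counts).

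*Serpind1* encodes heparin cofactor II, a second thrombin inhibitor. The gene (ENSMUSG00000022766, chromosome 16 from 17331371 to 17343575, plus strand) ran from 392 CPM to 580.3 CPM in A226Y (median 519 CPM) and from 489 CPM to 685 CPM in WT mice (median 579 CPM). Again 9 of 10 A226Y mice were below the WT median, and 4 WT mice were above every A226Y mouse. For *Serpind1* the log2 difference came to −0.19 (standard error 0.08, adjusted p = 0.118, exact permutation p = 0.0233). It was −0.12 without mice 29 and 33 (adjusted p = 0.241) and −0.03 with the surrogate variables. *Serpind1* lies within an intron of *Pi4ka* on the other strand, with no exonic base in common.

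*Pros1* encodes protein S, the cofactor of activated protein C. The gene (ENSMUSG00000022912, chromosome 16 from 62854307 to 62929346, plus strand) ran from 54.5 CPM to 92.3 CPM in A226Y (median 62.5 CPM) and from 55.7 CPM to 112 CPM in WT mice (median 62.0 CPM). The groups overlapped almost entirely, with 5 of 10 A226Y mice below the WT median. On the log2 scale the groups were −0.04 apart (standard error 0.13, adjusted p = 0.868, exact permutation p = 0.833). The sign was positive without mouse 33 (0.09), without mice 29 and 33 (0.03) and with library size as the only scaling (0.02).

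*Plg* encodes plasminogen, the zymogen of plasmin. The gene (ENSMUSG00000059481, chromosome 17 from 12378608 to 12419385, plus strand) ran from 2009 CPM to 2675 CPM in A226Y (median 2137 CPM) and from 2089 CPM to 3865 CPM in WT mice (median 2685 CPM). All 10 A226Y mice were below the WT median and 4 WT mice were above every A226Y mouse. The log2 fold change was −0.30 (standard error 0.10) and the adjusted p of 0.0501 lay next to the threshold (exact permutation p = 0.00850). It was 0.0491 without mice 29 and 33, with a log2 fold change of −0.23, and 0.664 with the surrogate variables, with −0.09.

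*Serpinf2* encodes alpha2-antiplasmin, the fast inhibitor of plasmin. The gene (ENSMUSG00000038224, chromosome 11 from 75431732 to 75439591, minus strand) ran from 417 CPM to 661 CPM in A226Y (median 541 CPM) and from 481 CPM to 1254 CPM in WT mice (median 616 CPM). The highest value was that of mouse 33, which had 2.20 times the median of the other WT mice. Over all mice the log2 difference was −0.36 (standard error 0.15, adjusted p = 0.128, exact permutation p = 0.0848). Leaving out mouse 33 moved it to −0.18 (adjusted p = 0.313), and leaving out both mice to −0.16 (adjusted p = 0.343). With the surrogate variables it was −0.03 (adjusted p = 0.912).

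*Cpb2* encodes TAFI, the carboxypeptidase that slows clot lysis. The gene (ENSMUSG00000021999, chromosome 14 from 75242287 to 75283555, plus strand) ran from 198 CPM to 482 CPM in A226Y (median 213 CPM) and from 194 CPM to 541 CPM in WT mice (median 261 CPM). Mouse 29 had 2.28 times the median of the other A226Y mice and mouse 33 had 2.17 times that of the other WT mice. Apart from these, the A226Y mice lay within a narrow band, 198 CPM to 227 CPM with an SD of 10.1 CPM (n = 9), while the WT mice spread from 194 CPM to 342 CPM with an SD of 56.3 CPM (n = 7). A log2 difference of −0.30 (standard error 0.20, adjusted p = 0.314, exact permutation p = 0.194) was found in all mice, and of −0.29 (standard error 0.10, adjusted p = 0.0459) without both. With the surrogate variables it was −0.03 (adjusted p = 0.880). Leaving out one of them moved it by over 1.5 times, to −0.48 (adjusted p = 0.0340) without mouse 29 and to −0.12 (adjusted p = 0.677) without mouse 33.

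*Kng1* encodes kininogen, the precursor of bradykinin and a cofactor of contact activation. The gene (ENSMUSG00000022875, chromosome 16 from 23057865 to 23082078, plus strand) ran from 1326 CPM to 2761 CPM in A226Y (median 1520.0 CPM) and from 1515 CPM to 3737 CPM in WT mice (median 1651 CPM). Of the A226Y mice, 5 were below every WT mouse, and mouse 33 had 2.27 times the median of the other WT mice. With all mice *Kng1* was −0.26 apart on the log2 scale (standard error 0.17, adjusted p = 0.331, exact permutation p = 0.268). It was −0.05 without mouse 33 (adjusted p = 0.832), −0.17 without both mice (adjusted p = 0.0766) and −0.13 with the surrogate variables (adjusted p = 0.430). Of the 1778 words of 50 bases in its principal transcript, 356 also occur in *Kng2*, so reads could be split between these paralogs and the level of *Kng1* is uncertain.

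Without mice 29 and 33, 4 of the 9 genes were called lower (*Hrg*, *Vtn*, *Plg* and *Cpb2*), where 9.13% of all genes tested in that fit were. With the surrogate variables none of the 9 had an adjusted p under 0.05 and 3 had an unadjusted one, and 50 of all tested genes were called in either direction. The direction stayed negative for 8 of the 9 genes in all 33 alternatives, the exception being *Pros1*.

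**Figure D2:**
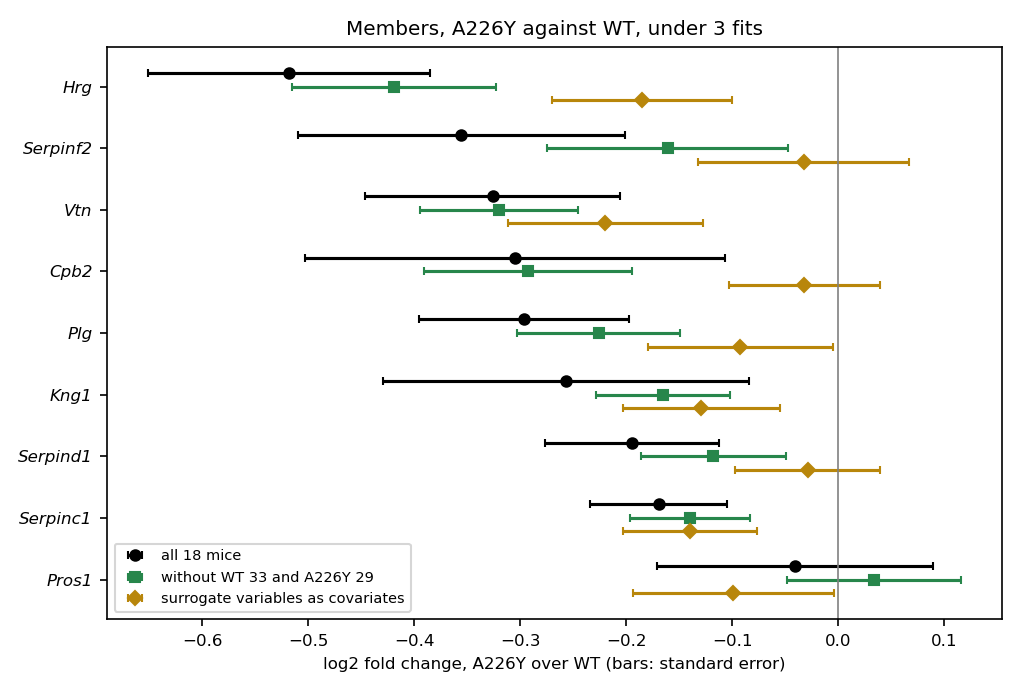
Log2 fold change of each gene, A226Y over WT (horizontal axis, bars show the standard error), from all 18 mice, without WT mouse 33 and A226Y mouse 29, and with surrogate variables as covariates. *Hrg* runs from −0.52 to −0.19 over the 3 fits, *Serpinc1* from −0.17 to −0.14, and *Pros1* is the one gene whose sign differs between them.

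In mouse 33, 8 of the 9 genes were the highest of all WT mice, from 1.22 times the median of the other WT mice for *Serpind1* to 2.27 times for *Kng1*. In mouse 29, *Vtn*, *Pros1*, *Cpb2* and *Kng1* were at 1.52 to 2.28 times the median of the other A226Y mice, *Hrg* and *Plg* were at 1.25 and 1.17 times, whereas *Serpinf2*, *Serpinc1* and *Serpind1* were below it, at 0.891, 0.807 and 0.743 times. The mean of the 9 log2 values, set against the WT mean, was 0.63 in mouse 33 and 0.05 in mouse 29, and between −0.36 and −0.18 in the other 9 A226Y mice. In the other 7 WT mice it ran from −0.25 to 0.12, the highest being WT mouse 14, which also had raised acute phase genes. The acute phase list itself held no gene with an adjusted p under 0.05 among 19 and 1 with an unadjusted one (*Steap4*, lower), and the part of the acute phase state in the group differences of the 9 genes was not tested. With both mice left out, the summed acute phase level was 10502 to 14473 CPM in the A226Y mice and 10679 to 22744 CPM in the WT mice.

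**Figure D3:**
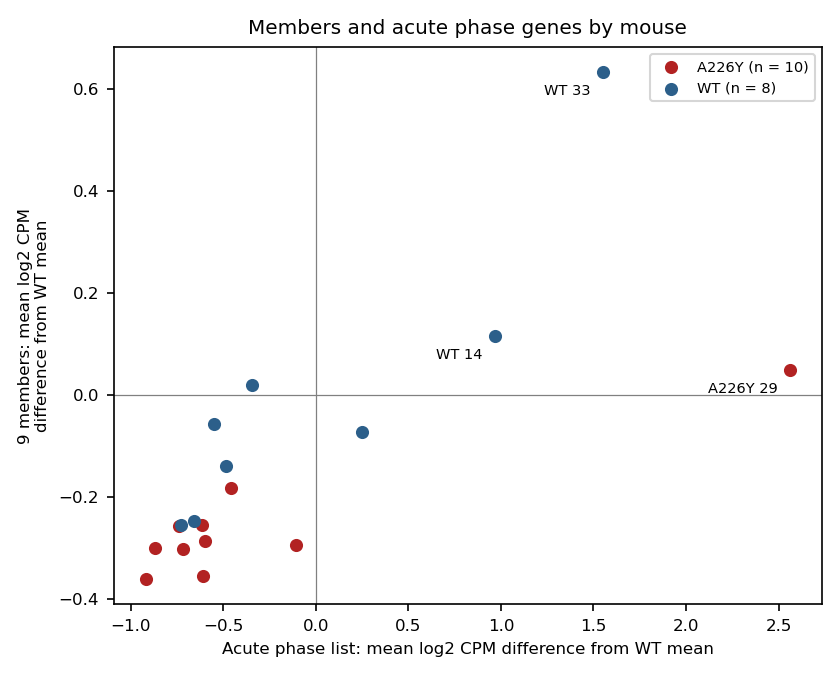
Mean log2 CPM of the 9 genes (vertical axis) and of the 19 acute phase genes (horizontal axis) in each mouse, each gene set against its WT mean. WT mouse 33 lies at 1.55 and 0.63, A226Y mouse 29 at 2.56 and 0.05, WT mouse 14 at 0.97 and 0.12, and the other 9 A226Y mice lie below −0.10 on the horizontal and below −0.18 on the vertical axis.

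Correlations between the 9 genes were computed over the 18 mice after the mean of each genotype was removed, as a description. Of the 36 pairs, 29 were positive, with a median Pearson's r of 0.57. The highest was that of *Cpb2* and *Kng1*, 0.90, and the lowest that of *Serpinc1* and *Pros1*, −0.64. Without mice 29 and 33 the median over the pairs was 0.30. The 3 highest values in these 16 mice were those of fibrinolysis genes, *Plg* with *Cpb2* (0.76), *Plg* with *Serpinf2* (0.76) and *Serpinf2* with *Cpb2* (0.75). *Pros1* with *Cpb2* and with *Kng1* fell to 0.13 and 0.18 there, from 0.75 and 0.82 in all mice. Among the pairs whose sign turned were *Vtn* with *Pros1*, from 0.50 to −0.65, and *Serpinc1* with *Vtn*, from −0.22 to 0.61. The pair *Serpinc1* and *Pros1* was at −0.78. All values come from the same libraries and scaling factors.

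**Figure D4:**
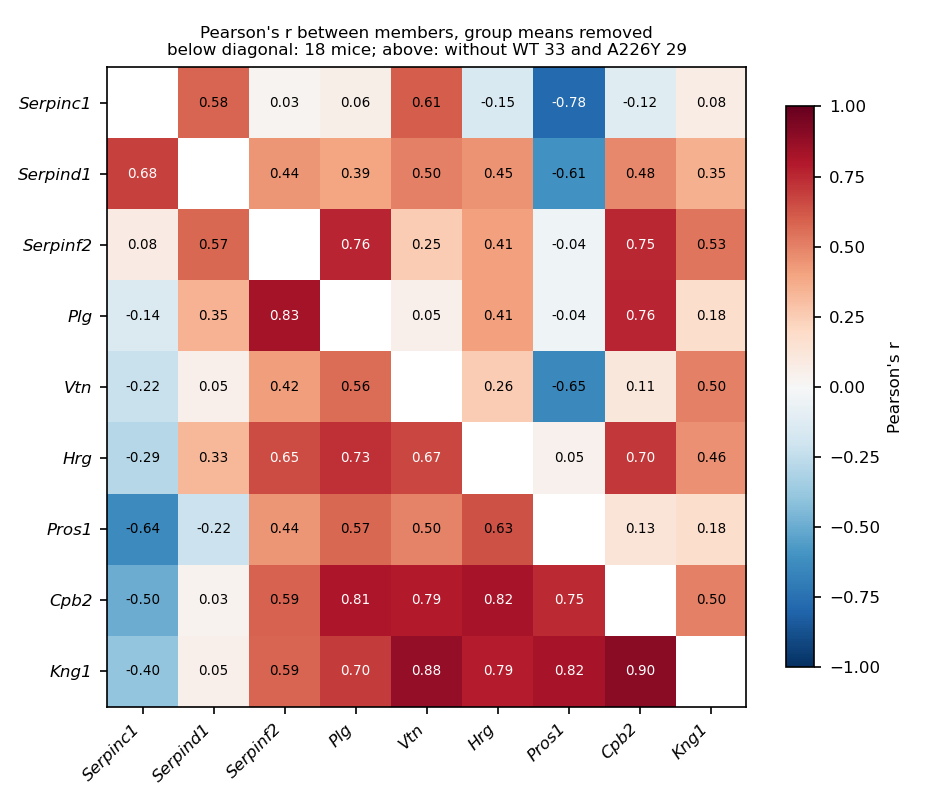
Pearson's r between each pair of the 9 genes after removal of the genotype means, from all 18 mice below the diagonal and from 16 mice, without WT mouse 33 and A226Y mouse 29, above it. *Plg*, *Serpinf2* and *Cpb2* are at 0.75 or more with each other above the diagonal, and *Serpinc1* with *Pros1* is the most negative pair on both sides.

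Outside the 9 genes, those whose level followed their mean most closely in the same centred data were ranked over the 11932 genes averaging 1 CPM or more. The 10 highest were *Cfi* (Pearson's r 0.94, n = 18 mice), the complement protease factor I, *Itih1* (0.92), a hyaluronan-binding plasma protein, *Il13ra1*, *B3galt1*, *Mgat5*, *Serping1* (0.88), the inhibitor of the contact and complement proteases, *F10* (0.88), clotting factor X, *Skap2*, *Fam81a* and *H2-T23*. Without mice 29 and 33 these values lay between 0.45 for *Fam81a* and 0.81 for *H2-T23*. The most opposite were *Cyp4a14* (−0.93), a fatty acid hydroxylase, *Proca1* (−0.93) and *Tfcp2l1* (−0.91), which were at −0.71, −0.72 and −0.65 without those mice. Since the genes were picked as the ends of a ranking, these values describe the mice and carry no test.

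Per length, the order of the 9 genes in WT liver was *Vtn*, *Kng1*, *Plg*, *Hrg*, *Serpinc1*, *Serpinf2*, *Serpind1*, *Cpb2* and *Pros1*, from 1519.5 ± 282 to 20.8 ± 5.48 CPM per kb of the principal transcript (SD, n = 8). *Vtn* was above *Kng1*, *Plg* above *Hrg* and *Cpb2* above *Pros1* in all 18 mice. *Kng1* was above *Plg* in 4 of 8 WT and 8 of 10 A226Y mice, *Hrg* above *Serpinc1* in 6 of 8 WT and 3 of 10 A226Y mice, and *Serpinf2* above *Serpind1* in 5 of 8 WT and 6 of 10 A226Y mice. In WT liver these neighbours did not differ beyond their spread. The annotated *Serpinc1* transcript of 4970 bases holds 1395 coding bases. Per kb of coding sequence *Serpinc1* was at 1802 ± 90.3 CPM, next to *Vtn* with 1848 ± 343 CPM (SD, n = 8), so its place in the order depends on the length used.

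The sequences before the transcription start were compared for the 7 of the 9 genes that RefSeq's promoter table on GRCm38.p6 holds, which are all but *Plg* and *Kng1*. The 250 bases before the start are printed for 3 genes, *Hrg* as the gene that passed the test, *Vtn* as the gene with the most A226Y mice below every WT mouse, and *Pros1* as the gene without a difference. They lie at chr16:22950822-22951071, chr11:78498870-78499119 and chr16:62854057-62854306, all on the plus strand, and capitals mark the motif matches listed after them. RefSeq's start of *Vtn* lies downstream of 78499091, where GENCODE M21 places the start of the gene, so the end of its window, with the match nearest to the start, is inside the gene in that annotation.
Hrg: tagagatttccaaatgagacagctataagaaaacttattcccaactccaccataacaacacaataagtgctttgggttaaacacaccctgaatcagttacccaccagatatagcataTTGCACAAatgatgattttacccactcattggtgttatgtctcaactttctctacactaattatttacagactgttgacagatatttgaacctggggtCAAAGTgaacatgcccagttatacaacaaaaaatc
Vtn: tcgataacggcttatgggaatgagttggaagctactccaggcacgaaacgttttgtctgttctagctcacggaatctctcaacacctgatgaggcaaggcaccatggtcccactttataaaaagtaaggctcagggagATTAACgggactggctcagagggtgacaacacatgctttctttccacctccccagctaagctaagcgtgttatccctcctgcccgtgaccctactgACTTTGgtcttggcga
Pros1: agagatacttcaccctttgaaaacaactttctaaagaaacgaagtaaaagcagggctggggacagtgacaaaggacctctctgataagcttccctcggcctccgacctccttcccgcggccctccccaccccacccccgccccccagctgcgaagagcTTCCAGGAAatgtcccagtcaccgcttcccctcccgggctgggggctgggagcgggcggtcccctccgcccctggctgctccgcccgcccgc

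These sequences were searched on both strands for 4 motifs of liver factors: GTTAAT (part of the HNF1 site), CAAAGT (the core of HNF4 sites), TTGCNNAA (C/EBP) and TTCNNNGAA (STAT3). The core CAAAGT occurred in 3 of the 7 genes, *Hrg* (35 bases before the start), *Serpind1* (92 bases before) and, on the minus strand, *Vtn* (16 bases before), and in 12.6% of 32851 promoters of the same length. *Hrg* also held TTGCACAA, a C/EBP match 133 bases before the start, and *Vtn* a GTTAAT match on the minus strand 112 bases before it. *Pros1* held the STAT3 match TTCCAGGAA 92 bases before the start. The C/EBP, STAT3 and GTTAAT motifs were each found in 1 of the 7 genes, and in 9.6% (C/EBP), 7.0% (STAT3) and 6.4% (GTTAAT) of all promoters. The matches did not overlap each other. The *Pros1* sequence also differed in composition, with 64.4% G or C and 15 CG pairs, against 36.4% and 0 in *Hrg* and medians of 52.4% and 6 over all promoters. A match of letters is not evidence of binding.

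The wider pathway was described from 6 lists of genes around the 9, in which 44 genes were tested. Of these, 10 were called lower and 3 higher, where 7.03% of all tested genes were called lower and 7.27% higher, and their median log2 fold change was −0.18. Among the other anticoagulants, 3 of 9 were called lower and none higher. *Proc*, the protease protein C whose cofactor is protein S, averaged 396 ± 47.9 CPM among A226Y (SD, n = 10) and 530.3 ± 35.1 CPM among WT mice (SD, n = 8), lower in each A226Y mouse than in any WT mouse (log2 fold change −0.42, adjusted p = 0.00219). *Proz*, which encodes protein Z, had −0.52 (adjusted p = 0.00575) and *Serpina10*, which encodes the protein Z-dependent inhibitor of factor Xa, −0.59 (adjusted p = 0.0215). These calls stood without mice 29 and 33, with −0.38 for *Proc*, −0.39 for *Proz* and −0.53 for *Serpina10*. *Apoh*, the gene of this list with the highest level, had −0.06 (adjusted p = 0.663).

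Among the genes that activate or anchor plasminogen, 1 of 8 was called lower and none higher. This was *Habp2*, the hyaluronan-binding protease that can activate urokinase, averaging 128 ± 8.42 CPM among A226Y (SD, n = 10) and 159.7 ± 18.2 CPM among WT mice (SD, n = 8; log2 fold change −0.32, adjusted p = 0.00486, and −0.30 without mice 29 and 33). The activators themselves were scarce and were not called, with means of 0.273 (WT) and 0.366 CPM (A226Y) for *Plat* and of 2.09 and 1.83 CPM for *Plau*.

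Among the other inhibitors of fibrinolysis, *Serpine2*, protease nexin-1, rose from a WT mean of 4.93 ± 2.11 CPM (SD, n = 8) to an A226Y mean of 12.2 ± 4.40 CPM (SD, n = 10) (log2 fold change 1.30, standard error 0.26, adjusted p = 0.00380), with 8 A226Y mice above every WT mouse, and was at 1.24 without mice 29 and 33 (adjusted p = 0.00278). *Pzp*, the gene of this list with the highest level, had −0.40 (adjusted p = 0.0691).

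Among the clotting factors, 4 of 14 were called lower and none higher. *F2* (prothrombin) was below every WT mouse in all 10 A226Y mice (log2 fold change −0.34, adjusted p = 0.00476). *F7* had −0.41 (adjusted p = 0.00252), *F10* −0.32 (adjusted p = 0.00713) and *F11* −0.63 (adjusted p = 0.0473). The call of *F11* was lost without mice 29 and 33 (−0.37, adjusted p = 0.132), where *F2* was at −0.30, *F7* at −0.36 and *F10* at −0.28, each with an adjusted p under 0.05. *Fga*, a fibrinogen chain and the gene of this list with the highest level, had −0.25 (adjusted p = 0.487). In the vitamin K cycle, which makes *Proc*, *Proz*, *Pros1* and several clotting factors functional, the carboxylase *Ggcx* was lower (−0.32, adjusted p = 0.0178). *Vkorc1l1*, a paralog of the epoxide reductase, was higher (0.16, adjusted p = 0.0292). *Fmo5*, the gene of this list with the highest level, had 0.10 (adjusted p = 0.684). It was placed in the list but is not an established enzyme of the cycle. *Ggcx* was at −0.29 (adjusted p = 0.0374) and *Vkorc1l1* at 0.19 without mice 29 and 33, both still called. With surrogate variables none of the 13 called genes of the lists had an adjusted p under 0.05. Leaving out 1 mouse could end the calls of *Serpina10*, *F11* and *Vkorc1l1* (highest adjusted p 0.0574, 0.111 and 0.0591).

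**Figure D5:**
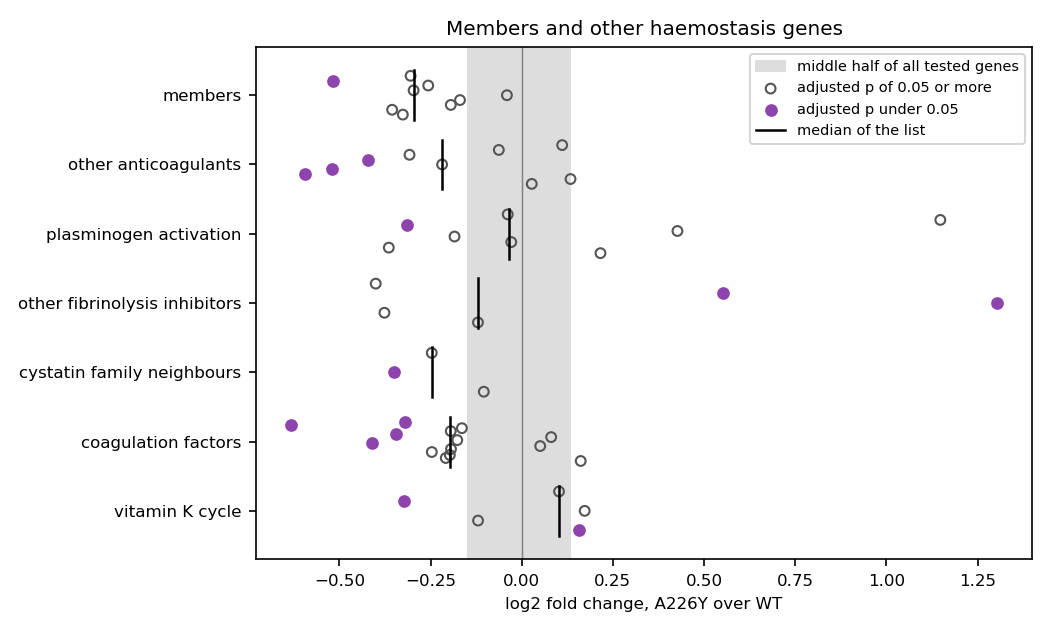
Log2 fold change, A226Y over WT (horizontal axis), of each tested gene of the 9 and of the 6 lists around them, filled where the adjusted p was under 0.05, with each list's median as a bar and the range between the quartiles of all tested genes (−0.15 to 0.13) in grey. *Hrg* is the filled point of the top row, and *Serpine2* is the filled point farthest to the right.

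Markers of the cell types that liver holds were read from the same fit, in which 7.03% of all tested genes were called lower and 7.27% higher. At an unadjusted p under 0.05, 1967 of all 13353 genes were lower and 1986 were higher. Of 10 hepatocyte markers, 2 were called lower (*Serpina6* −1.21 and *Apoa2* −0.31) and 3 higher (*Tat* 0.85, *Cps1* 0.55 and *Apob* 0.29), so genes of this cell type did not move as one. Of 8 Kupffer cell markers 1 was called lower (*Clec4f*, −0.65, adjusted p = 0.0261), 4 were lower at an unadjusted p under 0.05 and 7 had a negative fold change, with a median of −0.43 over the list. Their summed level was 278 to 1083 CPM (median 377 CPM) in A226Y and 416 to 841 CPM (median 604 CPM) in WT mice, the highest being mouse 29 and mouse 33. Of 7 stellate cell markers 2 were called lower (*Col1a1* −0.77 and *Col3a1* −0.60), while *Dcn*, the one with the highest level, was at 0.18 (adjusted p = 0.0913), higher at an unadjusted p under 0.05. The median over the stellate list was −0.000239, with 4 negative and 3 positive values. None was called among the markers tested of sinusoidal endothelium (8), cholangiocytes (5), B and plasma cells (8), T cells (5), megakaryocytes and platelets (3) and erythroid cells (5), where at an unadjusted p under 0.05 1 endothelial and 1 T cell marker were lower and 1 cholangiocyte marker was higher. All 8 B and plasma cell markers had a negative fold change. Their summed level was 82.4 to 425 CPM in A226Y and 81.5 to 1107 CPM in WT mice, mouse 33 being the highest. The medians of that sum went the other way, with 124 CPM in A226Y and 105 CPM in WT mice. The part of these cell types in the results was not tested.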

How the data were processed

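Liver RNA of 10 A226Y and 8 WT mice was analysed, 1 library per mouse, with groups from the sample titles. The values the authors deposited are raw read counts for Ensembl gene identifiers. The methods name RSEM on 50-base single-end reads, with an Ensembl annotation and an assembly written as GRCm37, whereas the submitters' processing notes name STAR, featureCounts and GRCm38, so which step gave the counts and whether strand was used is not given in the sources used here. The labels name no batch. Counts within a group differed by more than sampling noise for every pair of mice (chi-square per degree of freedom at least 16.5).

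Symbols and coordinates came from GENCODE M21 on GRCm38 (22214 identifiers matched). Of the genes of the lists, *Klkb1* was not matched. A gene was tested where 50% or more of the mice of either genotype had 10 or more counts. The test was edgeR's quasi-likelihood F test (4.0.16, R 4.3.3) with TMM scaling and without covariates, adjusted by Benjamini and Hochberg's method over 13353 genes. A standard error is the log2 fold change divided by the root of F. For each of the 9 genes an exact permutation test, two-sided, took the difference of mean log2 CPM (prior count 2) over every division of the mice into 10 and 8. These 9 p-values are unadjusted. At these depths the 9 genes had 1413 to 164615 counts per mouse, so counting error is small beside the spread between mice.

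The alternatives were RLE, upper quartile and library size scaling, other filters (filterByExpr, 10 counts in every mouse, 1 count in any mouse), DESeq2 1.42.0, limma-voom 3.58.1, edgeR's likelihood ratio test and robust fit, 4 surrogate variables from sva 3.50.0, lowess offsets (span 0.3, pseudocount 0.5) on the length of all exons of a gene together or on GC content, a prior count of 0.5, each mouse left out, and mice 29 and 33 left out together. The quasi-likelihood, DESeq2 and limma-voom fits were tested on simulated data. The 9 genes and the lists were chosen with earlier results of these data known. Genes named beyond the 9 are *Rps2*, those of the 6 haemostasis lists with an adjusted p under 0.05 or the highest level of their list, called or abundant marker and acute phase genes, and the ends of the ranking by correlation. *Plat*, *Plau*, *Saa1*, *Saa2*, *Steap4*, the neighbours of *Hrg* and the genes that overlap the 9 were named after their values were seen. The result of 1 gene of the lists is not reported here, though the counts over the lists include it.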

Additional observations from a re-analysis of the deposited data

Results flagged for a closer look

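Among the 18 combinations of gene and genotype, 9 held a mouse whose gap to its nearest neighbour exceeded Dixon's 95% critical value, where chance gives about 1 in 20. In each of them the mouse was the highest of its group. WT mouse 33 stood apart for *Plg* (3865 CPM, next 2835 CPM), *Vtn* (3769 CPM, next 2863 CPM), *Hrg* (1845 CPM, next 1254 CPM), *Pros1* (112 CPM, next 72.1 CPM), *Cpb2* (541 CPM, next 342 CPM) and *Kng1* (3737 CPM, next 1897 CPM). A226Y mouse 29 stood apart for *Vtn* (3211 CPM, next 2314 CPM), *Cpb2* (482 CPM, next 227 CPM) and *Kng1* (2761 CPM, next 1675 CPM). The same 2 mice account for all 9, so these are not independent.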

How the results depend on the processing

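Under the 33 alternatives, 278 of the 297 values of the 9 genes kept their direction and their side of the threshold, 15 passed it where the main value did not, 1 no longer passed and 3 changed sign. The cause of these changes was not tested. The count of the 9 genes called lower, 1 as reported, was 4 with DESeq2, 2 with the likelihood ratio test, 2 with the length offset, 2 with the GC offset, 0 with the surrogate variables, 4 without mice 29 and 33, and between 1 and 4 with 1 mouse left out (4 without A226Y mouse 29; 2 without WT mouse 6, WT mouse 28 or A226Y mouse 23). The calls gained were those of *Plg*, *Vtn*, *Serpinc1* and *Cpb2*. At an unadjusted p under 0.05 the count was 6 as reported, 3 with the surrogate variables and between 4 and 8 with 1 mouse left out. The share of all tested genes lower at that threshold was taken in the main fit only (14.7%). The sign changes were those of *Pros1*, to 0.0168 with library size only, 0.0943 without mouse 33 (−0.103 without A226Y mouse 29, the other end of the range) and 0.0340 without mice 29 and 33. Of the haemostasis lists, 10 genes were called lower as reported, 0 with the surrogate variables and 8 to 12 with 1 mouse left out. Over all tested genes, 1910 were called in either direction (50.8% higher). The number was 2418 with DESeq2, 2085 with the likelihood ratio test, 1376 with the length offset and 1428 with the GC offset. It was 2363 without mice 29 and 33 and 50 with the surrogate variables (40 shared with the 1910). With 1 mouse left out it was 1255 to 2560, the highest being without A226Y mouse 29. The share called higher was 67.9% with library size only, 28.2% with the length offset and 28.6% with the GC offset, fits in which all 9 genes stayed negative except *Pros1* with library size only.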
